A study of Arabidopsis thaliana with 10 samples.

Results

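The interval taken as mitotic exit of synchronised Arabidopsis cells was examined. Arrays at 14, 16 and 19 h after release from a replication block were set against those at 8, 10 and 12 h. These 6 arrays were chosen by their sampling times, out of a course of 10. Both windows came from the MM2d line of Arabidopsis thaliana, a cell suspension grown in continuous darkness at 27 °C in a medium with sucrose, the auxin NAA and kinetin. Per the labels, early stationary cells, 7 days after subculture, had been diluted and held for 24 h with 4.16 ug/ml aphidicolin, an inhibitor of replicative DNA polymerases, and all 10 arrays followed 1 wash that removed the drug. No genotype other than that of the line is given, and no array of cells that had never been blocked was used here. Each time had 1 array of total RNA on the ATH1 GeneChip, which measures 1 MAS5 signal per probe set. The 3 arrays of a window are different times of 1 culture course and not replicates, so a p-value here measures no more than the scatter among these times.

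In plants, mitotic cyclin-dependent and Aurora kinases drive chromosome condensation and spindle assembly, and the anaphase-promoting complex then marks their cyclins and other mitotic proteins for destruction. Division ends with the phragmoplast, an array of microtubules on which the new cell plate is laid down. Many plant genes of G2 and M phase share a transcriptional programme that is switched off as cells divide. Daughter cells then enter G1 and may grow. Growth depends on loosening of the cell wall by expansins, xyloglucan endotransglucosylase/hydrolases (XTHs), pectin-modifying enzymes and endoglucanases.

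The 6 arrays were similar in scale. Median signals were 37.9 to 43.6 at 14 to 19 h and 37.96 to 42.6 at 8 to 12 h, with 23.2% to 26.5% and 23.1% to 25.7% of probe sets under the floor signal of 12. Pearson correlations of log2 signals across probe sets were 0.967 to 0.976 among the late arrays, 0.957 to 0.974 among the middle arrays and 0.957 to 0.974 between the windows. The arrays therefore did not form separate blocks by window. No mitotic index is in the files, so the position of the cells could be followed only through transcripts of mitotic genes. Of the 23 tested probe sets on 4 lists of mitotic genes, 17 (73.9%, against 12.3% of all tested) were highest at 10 h among the 6 arrays. In 13 (56.5%, against 55.1% of all tested) the 8 h signal was lower than the 14 h signal. Most of these transcripts thus peaked before the late window, while the share lower at 8 h than at 14 h was near that of all tested. Exit of the cells from mitosis was not itself measured. At 8 h, UBC20 and 3xHMG-box2 were at a level between those at 6 h and at the peak.

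Transcripts of the 3 Aurora kinases were highest at 10 h and lower in the arrays after 12 h. AUR3, an Aurora kinase, had signals of 114, 79.3 and 82.8 at 14, 16 and 19 h, against 169, 212 and 176 at 8, 10 and 12 h. Every late value lay below every middle value, and the late mean was lower by 1.03 log2 units (log2 difference -1.03 ± 0.16, SE; adjusted p = 0.206 by limma). AUR1, another Aurora kinase, had signals of 387, 303 and 202 at 14 to 19 h, against 322, 551 and 529 at 8 to 12 h. AUR2 had signals of 77.7, 57.0 and 48.6 in the late arrays and 54.4, 102 and 99.4 in the middle arrays. For both genes the windows overlapped because the 8 h array was already lower than the 14 h array, and their log2 differences were -0.66 ± 0.26 and -0.45 ± 0.27 (SE). These 3 are the mitotic kinases with a named probe set among the 25 genes on that list; cyclins and cyclin-dependent kinases were not analysed here.

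The limma test across all 13647 tested probe sets called none in either direction, a background of 0%, and the lowest adjusted p was 0.206. At an unadjusted p under 0.05, 1426 probe sets passed, 773 higher late (5.66%) and 653 lower late (4.78%). The windows did not overlap in 1206 probe sets that were higher late (8.84%) and in 977 that were lower late (7.16%). With 3 times against 3, an exact permutation test for a single gene cannot go below p = 0.1. The levels below are therefore given per array, and a gene is called higher or lower by its values only. RNA was taken from the whole culture, so fewer cells in mitosis and less of a transcript per mitotic cell cannot be told apart.

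TOPII and both 3xHMG-box genes of the chromosome list were also highest at 10 h. TOPII, DNA topoisomerase II, which disentangles sister chromatids, had signals of 290.3, 218 and 156 at 14 to 19 h, against 383, 747 and 410.4 at 8 to 12 h. The windows did not overlap, and the late level was 2.29-fold lower (log2 difference -1.19 ± 0.28, SE; limma adjusted p = 0.252). 3xHMG-box2, an HMG-box protein that associates with mitotic chromosomes, had signals of 319, 201 and 136 late, against 165, 515 and 481 in the middle window. The 8 h array was lower than the first 2 late arrays, so the windows overlapped (log2 difference -0.74 ± 0.44, SE). Its relative 3xHMG-box1 had signals of 54.6, 38.9 and 45.3 late and 49.7, 117 and 80.9 in the middle window. All 6 tested probe sets of the chromosome list had a late mean below the middle mean, by a median of -0.70 log2 units. HTR12, the centromeric histone H3 variant, was also apart in all arrays, with 31.3, 39.9 and 29.2 late and 56.6, 62.5 and 40.4 in the middle window. Unlike TOPII, HTR12 had a higher signal at 4 h, 84.4, than in any of the 6 arrays. ATSMC2, a condensin subunit, had a log2 difference of -0.46 ± 0.17 (SE) with overlapping windows. AT3G57060 was highest at 8 h and higher at 14 h than at 10 h, with 88.4, 77.3 and 53.0 late and 94.7, 77.6 and 84.1 in the middle window.

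Of the 7 tested checkpoint and proteolysis genes, 6 had a lower late mean, with a list median of -0.35 log2 units, which was -0.099 without the 19 h array and -0.12 with 6 h added to the middle window. UBC20, a ubiquitin-conjugating enzyme of the mitotic cycle, had signals of 911, 595 and 412 at 14 to 19 h, against 309.6, 1131 and 1200 at 8 to 12 h. The first late array was still near the peak, and the first middle array lay well below it. BUBR1, a spindle checkpoint protein, had signals of 85.6, 61.6 and 42.0 late and 56.8, 99.5 and 83.2 in the middle window. BUB3.1 had signals of 161, 111 and 91.6 late and 113, 188 and 178 in the middle window. Its 19 h signal was above its signals of 76.5 at 4 h and 78.7 at 6 h. HBT is a CDC27 subunit of the anaphase-promoting complex. It was the 1 member of 7 whose windows did not overlap, beside 7.16% of all tested that were apart and lower late. Its signals were 80.9, 89.4 and 90.9 late and 107, 116 and 111 in the middle window. The second CDC27 gene, CDC27a, had window means close to each other, with its lowest signal at 12 h inside the middle window. Its signals were 56.1, 63.5 and 60.2 late and 75.3, 57.0 and 49.2 in the middle window, a log2 difference of 0.01 ± 0.18 (SE).

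Of the cytokinesis genes, KINESIN-12B, a phragmoplast kinesin, had signals of 65.3, 51.3 and 26.6 late and 52.2, 96.4 and 68.4 in the middle window. Its log2 difference was -0.65 ± 0.34 (SE), and the 8 h array lay within the late range. AT2G36200, which the gene table used lists by locus code only, was apart in all arrays, with 91.9, 84.8 and 72.4 late and 127.7, 169.5 and 112 in the middle window. FU, the FUSED kinase needed for cytokinesis, came in through the naming rule, by the size of its difference, and not through a list. It had 169, 119 and 134 late and 221, 279 and 206 in the middle window, a log2 difference of -0.75 ± 0.16 (SE, limma adjusted p = 0.230). KEU, a membrane-fusion regulator of the cell plate, differed in direction, with 89.6, 102 and 129 late and 102, 99.3 and 91.3 in the middle window, although these windows overlapped. The list median of -0.20 log2 units was 0.073 without the 10 h array and 0.0097 with 6 h added to the middle window, so its sign was not stable.

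**Figure D1:**
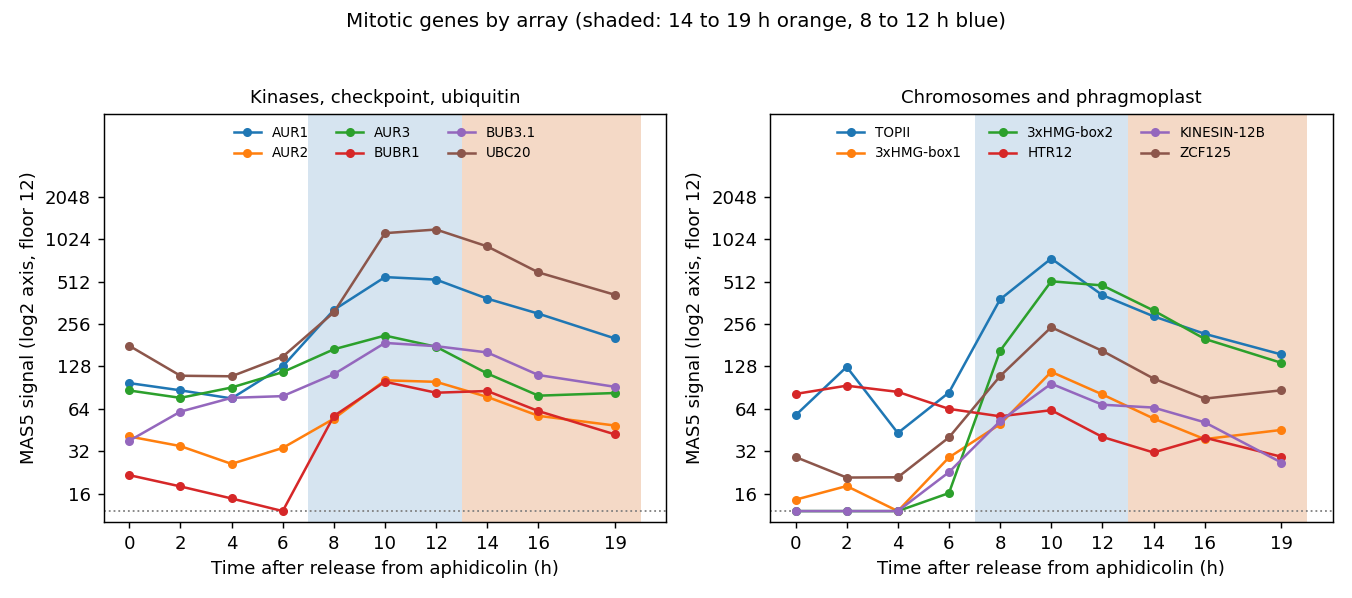
MAS5 signal (log2 axis, floor 12) of mitotic genes at each of the 10 sampling times after release (x axis, h), 1 point per array, with the windows of 14 to 19 h and 8 to 12 h shaded. Most of the genes drawn peak at 10 or 12 h. The 8 h points lie higher than the 14 h points for AUR3, TOPII, HTR12 and ZCF125, and lower for the other genes drawn. ZCF125 is on none of the mitotic lists and was taken in through its values in these data.

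Over the 4 mitotic lists, 21 of the 23 tested probe sets had a lower late mean, against 6400 of all 13647 tested. The median of the 23 was -0.45 log2 units, against 0.01 over all tested probe sets. In 5 the windows did not overlap, all lower late (AUR3, HBT, AT2G36200, TOPII and HTR12), beside a background of 7.16%, and 8 had an unadjusted p under 0.05, beside 4.78%. The lower levels were reached over several arrays. Between successive arrays, 17 of 23 (73.9%, against 48.0% of all tested) were lower at 14 h than at 12 h, 18 (78.3%, against 50.7%) were lower at 16 h than at 14 h, and 19 (82.6%, against 54.2%) were lower at 19 h than at 16 h. The median steps were -0.15, -0.41 and -0.28 log2 units. At 19 h, 14 of 23 (60.9%, against 48.5% of all tested) were still above their mean at 4 and 6 h. These steps are single arrays against single arrays that share neighbours, and they carry no test.

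Because the 8 h array precedes the peak and the 14 h array follows it closely, the windows were also compared without both, as 16 and 19 h against 10 and 12 h, a choice made after seeing the data. In that limma fit 22 probe sets fell (0.161% of all tested) and 2 rose (0.0147%). The courses of the mitotic genes prompted the choice, so their adjusted p-values in that fit are descriptive and no independent test. With all 6 arrays 3xHMG-box2 had a limma adjusted p of 0.601 and AUR3 one of 0.206. Among the 23 mitotic probe sets, 2 fell: 3xHMG-box2 (log2 difference -1.59 ± 0.18, SE; adjusted p = 0.0435) and AUR3 (-1.26 ± 0.15, SE; adjusted p = 0.0435). The 4 mitotic probe sets next in order missed the threshold, with UBC20 at -1.23 ± 0.17 (SE; adjusted p = 0.0536), AUR1 at -1.13 ± 0.18 (adjusted p = 0.0723), BUB3.1 at -0.86 ± 0.15 (adjusted p = 0.0838) and TOPII at -1.59 ± 0.28 (adjusted p = 0.0896). The median difference of the checkpoint list was -0.74 log2 units in that comparison, against -0.35 with all 6 arrays, and that of the spindle and phragmoplast list was -0.81, against -0.20.

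Several cell wall genes were higher late. XTH20, an enzyme that cuts and rejoins xyloglucan, had signals of 132, 147 and 162 at 14, 16 and 19 h, against 64.1, 61.6 and 74.7 at 8, 10 and 12 h. All late arrays stood well above all middle arrays, and the late level was 2.20-fold higher (log2 difference 1.14 ± 0.13, SE; limma adjusted p = 0.206). XTH18 had signals of 143, 206.8 and 255.7 late, against 108, 106 and 79.8 in the middle window. XTH19, a neighbouring gene of XTH18 in the same family, had 60.9, 71.4 and 86.2 late, against 28.1, 36.2 and 45.2 in the middle window. Both were about 1 log2 unit higher late, at 1.02 ± 0.21 and 1.01 ± 0.22 (SE; limma adjusted p = 0.229 and 0.240), and near relatives may share signal on the array. XTH19 was higher at each time than at the one before it in the middle window too, whereas XTH18 was lowest at 12 h.

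Among the expansins, which loosen the wall without cutting it, EXPA15 had signals of 161, 204 and 242 late and 73.8, 112 and 166 in the middle window. EXPB3 had signals of 203, 258 and 398 late and 114, 153 and 243 in the middle window. EXPA4 had 1147, 1582 and 1772 late and 985, 1049 and 1244 in the middle window. In all 3 genes the 14 h signal was under the 12 h signal, so the windows overlapped, and their log2 differences were 0.85 ± 0.27, 0.76 ± 0.30 and 0.44 ± 0.16 (SE). The expansin-like genes EXLA1 and EXLA3 and XTH16 had smaller differences of 0.16 to 0.27, and EXPB5 was the 1 member below 0, at -0.20 ± 0.33 (SE). Of 27 expansin and XTH probe sets named in the annotation, only these 10 passed the filter on signal. In 3 of the 10 the windows did not overlap, all higher late, beside 8.84% of all tested, 6 had an unadjusted p under 0.05, beside 5.66%, and the median difference was 0.60 log2 units, against 0.01 over all tested. Over all 27 probe sets, with no filter, the median was 0.16.

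GH9C2, a family 9 glycosyl hydrolase of the endoglucanase type, had signals of 398, 584 and 933 late and 273, 322 and 382 in the middle window. Its signal was higher at each time than at the one before it, and the windows met without overlapping (log2 difference 0.90 ± 0.27, SE; limma adjusted p = 0.331). GH9B8, of the same family, had 72.5, 93.7 and 101.0 late and 36.0, 54.4 and 65.4 in the middle window. The members differed: 3 of the 7 tested members were apart and higher late (GH9C2, GH9B8 and GH9B12), beside 8.84% of all tested. GH9B12 was apart by almost nothing, with 31.2, 39.7 and 25.06 late and 22.3, 20.6 and 25.05 in the middle window. Its log2 difference was 0.48 ± 0.24 (SE). GH9A3, GH9B7 and GH9C1 had differences between -0.17 and -0.00078. ATPMEPCRB, a pectin methylesterase, had 40.3, 52.6 and 55.7 late and 23.7, 32.6 and 18.5 in the middle window (log2 difference 1.02 ± 0.26, SE; limma adjusted p = 0.278).

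**Figure D2:**
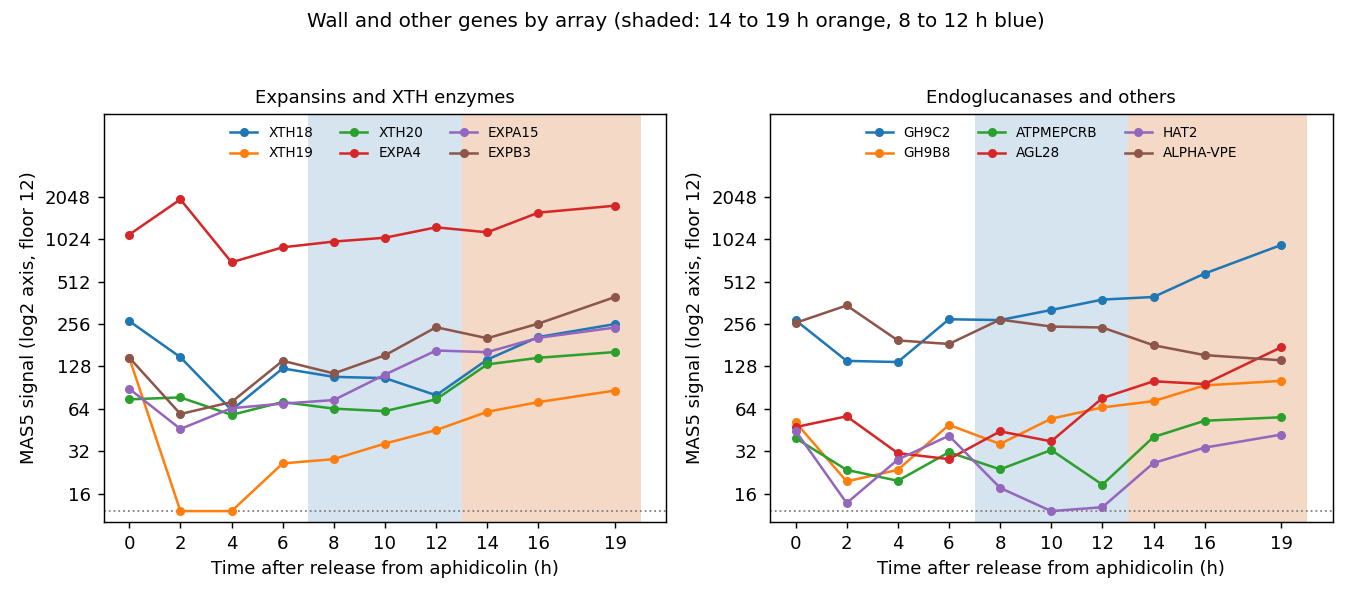
MAS5 signal (log2 axis, floor 12) at each sampling time (x axis, h after release) for expansin and XTH genes (left) and for endoglucanase and other named genes (right), 1 point per array, with both windows shaded. XTH18, XTH19 and XTH20 lie higher at 14 to 19 h than at 8 to 12 h in every array. XTH18 and XTH19, unlike XTH20, were also high at 0 h.

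A straight line of log2 signal on time over the same 6 arrays, an alternative to the comparison of windows, called 135 probe sets by limma at an adjusted p under 0.05, with 79 rising (0.579% of all tested) and 56 falling (0.41%). In 112 of the 135 the windows did not overlap, beside 8.84% of all tested that were apart and higher and 7.16% apart and lower. The line and the windows use the same arrays in the same order, so this count is no separate evidence. Of the 10 expansin and XTH probe sets, 5 rose: EXPB3 (0.93 ± 0.13 log2 units over the distance between window means, SE; adjusted p = 0.0207), XTH19 (0.96 ± 0.13; adjusted p = 0.0223), EXPA15 (0.93 ± 0.13; adjusted p = 0.0225), XTH20 (0.94 ± 0.15; adjusted p = 0.0349) and EXPA4 (0.50 ± 0.09; adjusted p = 0.0389). Of the 7 endoglucanase probe sets, 2 rose, GH9C2 (0.99 ± 0.10; adjusted p = 0.00784) and GH9B8 (0.83 ± 0.14; adjusted p = 0.0353). None of the 23 mitotic probe sets was called by the line, whose form does not describe a peak at 10 h. The remaining rising genes with a symbol were AGL28, a MADS-box transcription factor, the plastid gene psbH, the trichome birefringence-like gene TBL39 and BGLU28, a beta-glucosidase.

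The line called 6 falling genes with a symbol. MCCB, the beta subunit of methylcrotonyl-CoA carboxylase in leucine breakdown, had signals of 206, 186 and 148 late and 340.4, 251 and 222 in the middle window (-0.62 ± 0.08 log2 units, SE; adjusted p = 0.0178). ALPHA-VPE, a vacuolar processing protease, had 181, 154 and 141 late and 275, 246 and 242 in the middle window (-0.61 ± 0.08, SE; adjusted p = 0.0223). Both declined at every step from 8 to 19 h. EXGT-A3, which is also called XTH27 and was not on the wall list under that name, fell while 3 other XTH genes were higher late, with 324, 276 and 207 late and 386, 431 and 345 in the middle window (-0.56 ± 0.09, SE; adjusted p = 0.0353). The other 3 were WLIM2a, an actin-binding LIM protein, SAG101, a partner of EDS1 in immunity, and EME1A, a partner of the MUS81 endonuclease in recombination.

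By size, 43 probe sets (0.315%) were at least 1 log2 unit higher late with windows that did not overlap, and 30 (0.22%) were as much lower. The differences just inside and just outside this limit were 1.01 and 0.9997 among the higher and -1.01 and -0.99 among the lower. Without the 12 h array the counts were 76 and 68, without the 8 h array 41 and 72, and without the 14 h array 63 and 64. At least 1 of the 6 arrays was at or under the floor signal in 9 of the 43 and 8 of the 30, beside 211 of all 13647 tested. The sizes of these members depend in part on the floor. Of the 43, 21 named 1 gene, 1 named several and 21 named none, and 6 had a symbol: HAT2, AGL28, XTH20, XTH18, ATPMEPCRB and XTH19. Of the 30, 12 named 1 gene, and 2 had a symbol, TOPII and AUR3. HAT2, an auxin-inducible homeodomain-leucine zipper factor, had signals of 26.4, 33.9 and 41.9 late and 17.5, 10.98 and 12.8 in the middle window. Its 10 h signal was under the floor of 12, so its difference of 1.27 ± 0.28 log2 units (SE; limma adjusted p = 0.246) was computed with that array at the floor. AGL28 had 100.3, 95.9 and 175 late and 44.2, 37.6 and 76.2 in the middle window (1.25 ± 0.31, SE; limma adjusted p = 0.258).

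The probe sets furthest apart in each direction carry no name beyond a locus code in the gene table used, and they were picked after their values were seen. AT4G39320 had signals of 144, 242 and 381 late and 69.4, 79.95 and 82.2 in the middle window, a 3.08-fold higher level late (log2 difference 1.62 ± 0.30, SE; limma adjusted p = 0.206), and it rose in the comparison of 16 and 19 h with 10 and 12 h. AT5G52390 had signals of 446, 783 and 1387 late and 267, 241 and 331 in the middle window. AT1G62480 had 13.1, 13.2 and 8.15 late and 125, 38.5 and 23.6 in the middle window. Its late values were close to or under the floor, and its signals differed widely within the middle window.

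Of the 43 higher probe sets, 25 had their highest level in the 19 h array, 13 in the 16 h array and 5 in the 14 h array. Over all 13647 tested, these numbers were 2385, 2168 and 2580. The median level of the 43 above the middle mean was 0.99 log2 units in the 14 h array, 1.28 in the 16 h array and 1.37 in the 19 h array. The choice of these probe sets fixed a highest level in the late window, and it fixed these medians in part. The 0 h signal was also above the middle mean in 37 of the 43 (86%), against 46.1% of all tested, with a median of 0.81 log2 units. The filter on mean signal includes the 0 h array, and the choice favoured a low middle mean, which raises this share. With a filter on the 6 arrays alone, added after seeing the data, the 0 h signal was above the middle mean in 32 of 38 (84.2%), against 45.3% of all tested. The choice by the middle mean stayed in place there, so nothing is read from either of these shares against all tested. In 16 of the 43 (37.2%, against 44.2% of all tested) the 0 h signal was at or above the late mean. The late mean was also part of the choice, which lowers this share, so nothing is read from the comparison with all tested. XTH18 had a signal of 268 at 0 h, beside its late 143, 206.8 and 255.7, and XTH19 had 147 at 0 h, above its highest late signal of 86.2. AT4G39320 had 398 at 0 h, beside 381 at 19 h. Other members were not high at 0 h. XTH20 had 74.6 at 0 h, within its middle range of 61.6 to 74.7, and AGL28 had 47.4, within its middle range of 37.6 to 76.2. Cells at 0 h had just been washed after the block, and 0 h was 1 array. The share of these levels that belongs to the wash was not tested.

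Of the 30 lower probe sets, the highest of the 6 arrays was that of 8 h in 19, the 10 h array in 10 and the 12 h array in 1. Over all 13647 tested, these numbers were 2585, 1675 and 2254. The choice of the 30 left no room for a highest level in the late window. The mean at 4 and 6 h was below the middle mean in 17 of the 30, AUR3 and TOPII among them, and above it in 13. The share below, 56.7%, was near the 49.5% of all tested. Their median against the middle mean was -1.02 log2 units at 14 h, -1.22 at 16 h and -1.16 at 19 h, levels that the choice of these probe sets fixes in part.

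**Figure D3:**
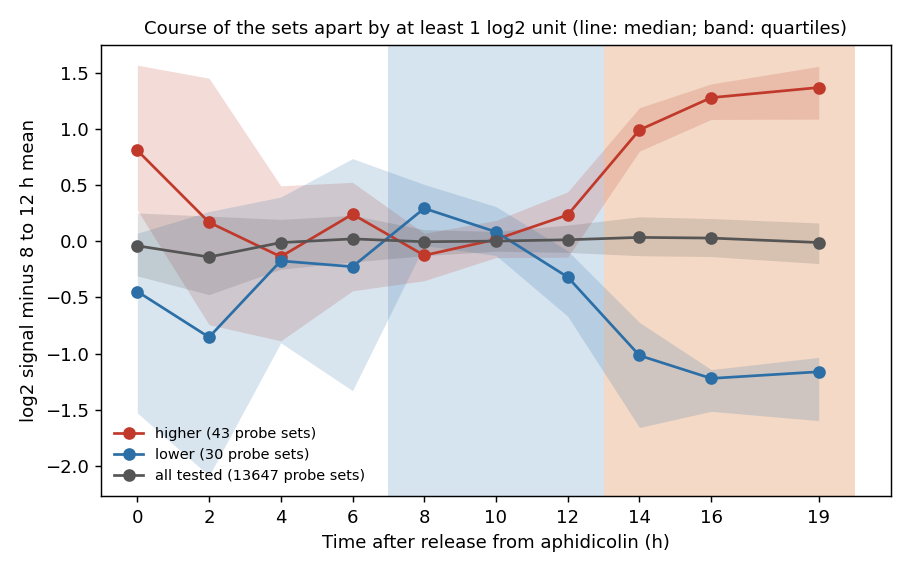
Median log2 signal relative to the mean of 8 to 12 h (y axis) at each sampling time (x axis, h after release) for the 43 probe sets at least 1 log2 unit higher late, the 30 at least as much lower late and all tested probe sets, with quartiles shaded. The 8 to 19 h values of the higher and lower sets are fixed in part by the choice of these sets. At 0 h the higher set has a median of 0.81, a level that the choice by a low middle mean raises.

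Other named genes were higher late with a wide spread in the middle window. SNF7.2, an ESCRT-III subunit of membrane sorting, had 94.6, 80.9 and 85.9 late and 70.0, 50.4 and 28.2 in the middle window. RECQI1, a RecQ-type helicase, had 47.2, 47.8 and 42.8 late and 35.5, 15.9 and 31.3 in the middle window. In both genes the late arrays lay close together and the middle arrays were spread, so the difference rested in part on the lowest middle array. The SNF7.2 difference of 0.91 ± 0.29 log2 units (SE; limma adjusted p = 0.363) was 0.55 without the 12 h array and 0.14 with that array moved to the late window.

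Among the lower named genes, CHR24, a chromatin-remodelling ATPase, had 132, 103 and 113 late and 197, 214 and 155 in the middle window (log2 difference -0.70 ± 0.15, SE; limma adjusted p = 0.230). ZCF125 had 105, 75.5 and 86.5 late and 109, 243 and 165 in the middle window, a peak at 10 h like that of the mitotic genes. DAYSLEEPER, a protein derived from a transposase, had 109, 75.1 and 103 late and 175, 163 and 139 in the middle window. The tetraspanin TET2, the carboxypeptidase-like gene scpl26 and the mitochondrial complex I gene nad1 were also apart and lower late, with log2 differences of -0.74, -0.66 and -0.82.

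Genes of DNA replication and the G1 phase were few. FBL17, which marks inhibitors of cyclin-dependent kinases for degradation, had signals of 259, 355 and 370.0 late and 239.9, 257 and 226 in the middle window. The windows were narrowly apart, and most of the late difference came from 16 and 19 h (log2 difference 0.43 ± 0.14, SE). FBL17 had higher signals earlier, 480, 544 and 472 at 0, 2 and 4 h, and 234 at 6 h, so its late levels were below those of the first 3 arrays. ICU2, the catalytic subunit of DNA polymerase alpha, had 224, 221 and 196 late and 181, 172 and 182 in the middle window. PRL, a subunit of the MCM helicase, had 486, 577 and 627 late and 474, 505 and 429.9 in the middle window. All 3 tested genes of the replication list had a late mean above the middle mean, by 0.08 to 0.26 log2 units. SIM, an inhibitor of cyclin-dependent kinases that acts in endoreduplication, had a difference of -0.18 ± 0.11 (SE).

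Histone H2B transcripts, which belong to S phase, were highest at 8 h among the 6 arrays in all 4 genes tested. HTB2 had signals of 417, 298 and 364 late and 671, 458 and 331 in the middle window. HTB11 had 91.7, 154 and 196 late and 236, 184 and 124 in the middle window, with its lowest level at 14 h. All 5 tested core histone probe sets, HTR12 among them, had a late mean below the middle mean (median -0.36, and -0.13 without the 8 h array), but from 16 to 19 h only 1 of the 5 was lower and the median step was 0.29 log2 units. Histone H2B genes are close copies, and their probe sets may share signal.

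Tubulins, the subunits of microtubules, differed little. TUB7 had 578, 445 and 465 late and 645, 770.0 and 691 in the middle window, and TUB1 had 174, 169 and 156 late and 191, 206 and 207 in the middle window. These 2 of 7 were apart and lower late, beside 7.16% of all tested, with log2 differences of -0.51 ± 0.12 and -0.28 ± 0.09 (SE), while TUB9 differed by 0.0020 ± 0.09. Most transcripts of the plastid genome had a slightly higher late mean. Of 68 tested probe sets, 57 had a late mean above the middle mean, against 7247 of all 13647 tested. In 11 the windows were apart, all higher (beside 8.84%), and the median of the 68 was 0.16 log2 units. Levels did not increase throughout: 49 of the 68 (72.1%, against 50.7% of all tested) were lower at 16 h than at 14 h, with a median step of -0.11. The plastid transcripts share 1 compartment and are no independent genes; psbH, of photosystem II, was the furthest apart with 151, 178 and 199.8 late and 89.4, 132 and 142 in the middle window, and it was the 1 member of 68 called by the straight line (0.60 ± 0.10, SE; adjusted p = 0.0382).

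**Figure D4:**
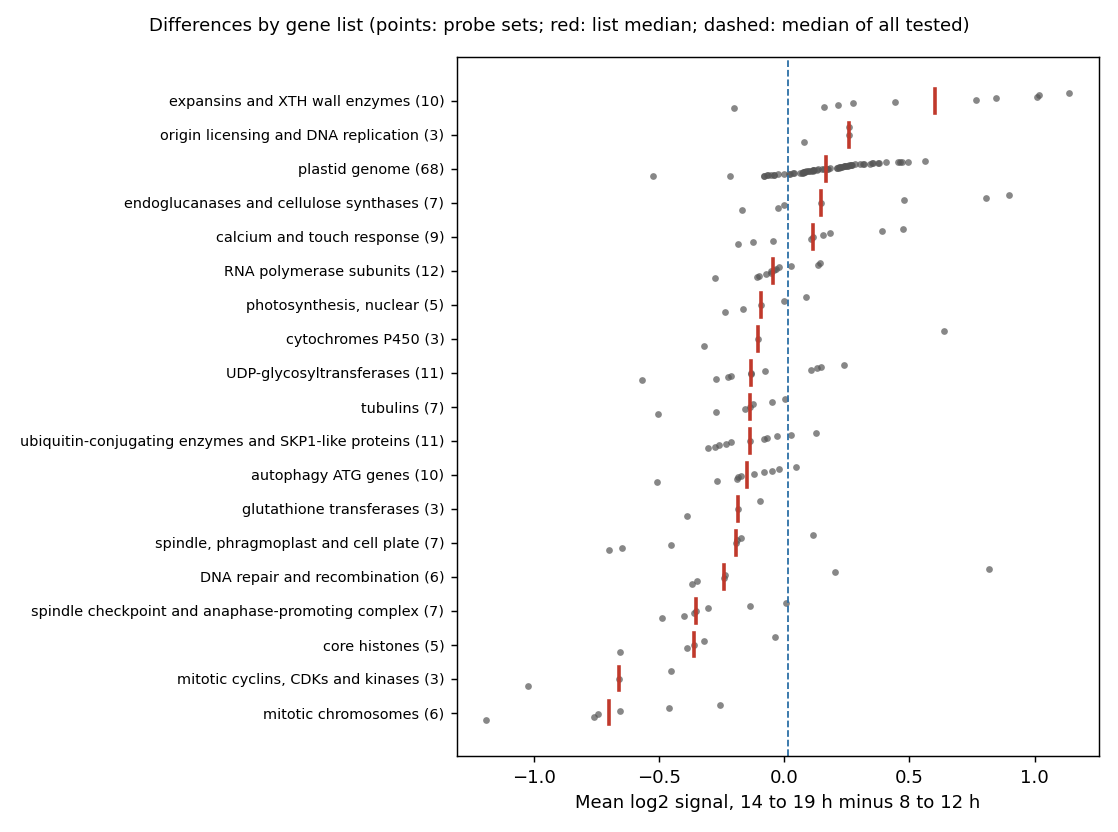
Difference of mean log2 signal, 14 to 19 h minus 8 to 12 h (x axis), for each tested probe set (points) of the gene lists with at least 3 tested members (rows, number tested in brackets), with the list median as a bar and the median of all tested probe sets as a dashed line. The expansin and XTH list has the highest median among the tested probe sets, 0.60 for 10 probe sets (0.16 for all 27 with no filter), and the 4 mitotic lists have medians of -0.20 to -0.70.

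The remaining lists with at least 3 tested probe sets had medians between -0.24 and 0.11. RNA polymerase subunits (12 tested) had a median of -0.05, the UDP-glycosyltransferases (11) -0.13 and the ubiquitin-conjugating and SKP1-like list (11) -0.14. Calcium and touch response genes (9 tested), known to respond to handling of plants, had a median of 0.11. None of the 9 was apart between the windows, beside 8.84% of all tested apart and higher and 7.16% apart and lower. Too few were tested to read this as a lack of response. Autophagy ATG genes (10 tested) had a median of -0.15, and 1 was apart, lower late, beside 7.16% of all tested. Glutathione transferases (3), cytochromes P450 (3) and nuclear photosynthesis genes (5) had medians of -0.19, -0.10 and -0.10. The 6 tested DNA repair genes had a median of -0.24. RECQI1 was apart and higher late (beside 8.84% of all tested), and FANCM and ATMND1 were apart and lower late (beside 7.16%). Defining markers of xylem, seed and root epidermis had no probe set that was both named and above the filter, so the culture could not be checked against these cell types.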

How the data were processed

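The deposited values are MAS5 signals, linear intensity values with 1 per probe set, made with MAS5 per the submitters' processing notes; the authors' software version and scaling target are not given in the sources used here. The 2% trimmed means of the arrays lay within 99.3 and 99.4. Of 22810 probe sets, 64 controls were left out. Of the other 22746, 13513 named 1 gene, 503 several and 8730 none; 13436 matched RefSeq's gene table (assembly TAIR10.1) and 1579 had a symbol. Signals under 12 were set to 12 and log2 was taken. Probe sets with a mean over the 10 arrays above the 40th percentile (26.6) were tested, 13647 in all, of which 7672 named 1 gene and 1025 had a symbol.

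Late (3 arrays) and middle (3 arrays) times were compared with limma 3.58.1 in R 4.3.3, with lmFit, eBayes with a mean trend, 4 residual degrees of freedom before moderation and Benjamini-Hochberg adjustment over all tested probe sets, calling an adjusted p under 0.05. The fit was tested on simulated data. SE is that of the limma contrast. Fold changes are differences of mean log2 signal turned to a linear scale. Each probe set was read within itself, and levels of different genes were not compared.

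The naming rule took up to 15 called genes in each direction. As none was called, its fill applied, the 10 largest differences in each direction among genes with a symbol, windows apart and an unadjusted p under 0.05. Members of the gene lists could be named too. Genes called by the straight line and those given by locus code were picked with their values in view. The times, lists and tests were chosen with earlier results of these data known. Alternatives changed the filter, floor, pseudocount, normalization, moderation, arrays and the form of the fit. No sequences were analysed here, so promoter motifs are not reported. The mitochondrial genome (matched by locus code), aquaporin, cytosolic ribosomal, proteasome and cytokinin lists had no tested probe set.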

Additional observations from a re-analysis of the deposited data

How the results depend on the processing

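Of 21 alternatives, limma called no probe set in 19. The straight line of time called 79 higher and 56 lower, and 16 and 19 h against 10 and 12 h called 2 and 22. The probe sets past 1 log2 unit and apart, 43 higher and 30 lower, numbered 20 and 15 with a filter at the 60th percentile, 13 and 9 with a pseudocount of 16, 105 and 101 without 12 and 14 h, 67 and 126 without 8 and 14 h, and 41 to 76 and 30 to 72 when 1 array was left out. All 13 and 9 found with the pseudocount were among the 43 and 30. The largest counts with 1 array left out were 76 higher without 12 h and 72 lower without 8 h; without 12 h 68 were lower, and without 14 h 64. The median of the mitotic kinases was -0.20 with 6 h added to the middle window, -0.33 with 12 h moved to the late window, -1.13 without 8 and 14 h and -0.91 to -0.41 with 1 array left out. The checkpoint median was -0.74 without 8 and 14 h, -0.12 with 6 h added and -0.60 to -0.099 with 1 array left out. The spindle median was -0.81 without 8 and 14 h, and it crossed 0 to 0.073 without 10 h and to 0.0097 with 6 h added. Core histones had -0.62 with 12 h moved, -0.10 without 8 and 14 h and -0.57 to -0.13 with 1 array left out. Expansins and XTHs had 0.16 with no filter, where 27 probe sets entered, and 0.91 without 12 and 14 h. Other medians crossed 0 for calcium and touch genes (-0.045 with the 60th percentile filter, -0.072 without 8 and 14 h), RNA polymerase (0.043 without 8 and 14 h, 0.012 without 14 h), nuclear photosynthesis (0.10 with 12 h moved, 0.028 with 6 h added, 0.022 without 19 h), UDP-glycosyltransferases (0.098 with 12 h moved, 0.044 without 12 and 14 h), cytochromes P450 (0.096 without 8 and 14 h) and endoglucanases (-0.00078 with the 60th percentile filter). Where the arrays differ, the alternative's own construction changes what is compared; other causes were not tested. AGL28, XTH20, XTH19, GH9C2, GH9B8 and ALPHA-VPE were called with the straight line and AUR3 without 8 and 14 h. None of the 20 genes taken in through the naming rule turned its direction. Of the 195 tested list members, 46 had the other sign in the straight line or in 16 and 19 h against 10 and 12 h, all from a difference of 0.32 or less in size, HTB11, HTB1, XTH16 and CDC27a among them. No paired analysis was possible because every sample is labelled replicate 1. The number of arrays, 1 per time, limits the precision, and signals near the floor carry bounds only. Promoter motifs were planned and not run.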
